A study of Mus musculus with 9 samples.

Results

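The 10 genes described here are heat-shock and chaperone genes: Hspa1a, Hspa1b, Hspa8, Hspa5, Hsp90aa1, Hsp90ab1, Dnajb1, Hsph1, Hspd1 and Hspe1. They were chosen by name, with earlier results of these data known, and each had 1 row among the 35275 gene identifiers of the count table. The libraries came from megakaryocyte-erythrocyte progenitors (MEPs) of mouse bone marrow, gated as Lin-ckit+CD34-FcγRII/IIIlo. HS3A8 is a single-chain antibody fragment (scFv) that binds heparan sulfate (HS), and MEPs were sorted into the cells with more of its binding (HS3A8-high) and those with less (HS3A8-low). A further group, the MPB49 control, was sorted after staining with MPB49, an scFv without HS binding, and stands for total MEPs. Each group had 3 libraries made from 25000 sorted cells each. The study's methods give C57Bl/6 as the wild-type strain and say that mice were 6 to 12 weeks old and matched for age and sex, and the labels name no transgene or treatment in any group. The replicates are described as individual mice, but the sources do not say whether both fractions with the same number came from the same mouse. All groups were stained with an scFv and sorted, so no library here shows the levels in unsorted marrow.

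Heat-shock proteins are chaperones: they bind proteins that are not folded, keep them from aggregating and help them fold. When unfolded protein accumulates, the transcription factor HSF1 forms trimers and binds heat-shock elements, inverted repeats of the unit GAA, in the promoters of the inducible genes. Hspa1a and Hspa1b encode the inducible Hsp70 and are the classical readout of this response, while Hspa8 encodes the constitutive Hsp70. Immediate-early genes such as Fos, Jun and Egr1 respond to signalling through other factors, and both groups of genes can be induced while tissue is handled. In erythroid progenitors Hsp70 is known to protect GATA1, which gives chaperones a role in this lineage. The question is whether the heat-shock genes differed between the fractions and whether they did so together with the immediate-early genes.

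Stretches before a RefSeq start site of 4 members are shown first. They set the letters of the heat-shock element beside those of the element found in Hspa5, the endoplasmic reticulum (ER) member. Sequences are those of RefSeq on GRCm38.p6, 5′ to 3′ on the gene's strand, and positions count back from the annotated start site. Capitals mark the match. The searched letters were GAANNTTC and TTCNNGAA, which read the same on both strands and overlap each other where units follow on, and the ER stress element, CCAAT and CCACG with 9 bases between them, on both strands. Entries were found for 7 of the 10 members, and Hspa8, Hsp90aa1 and Hsp90ab1 had no entry.
Hspa1b, chr17:34959239-34959488, minus strand: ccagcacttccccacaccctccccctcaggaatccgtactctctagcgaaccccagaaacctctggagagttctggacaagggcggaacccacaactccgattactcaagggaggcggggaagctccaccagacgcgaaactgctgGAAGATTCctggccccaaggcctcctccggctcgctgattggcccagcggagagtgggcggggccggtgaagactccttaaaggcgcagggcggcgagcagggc
Hspe1, chr1:55088054-55088081, plus strand: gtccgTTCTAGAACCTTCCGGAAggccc
Hsph1, chr5:149636357-149636374, minus strand: aatctTTCTCGAAggctc
Hspa5, chr2:34772020-34772048, plus strand: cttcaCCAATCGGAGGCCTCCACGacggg

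The match in Hspa1b lay at -104 to -97, and Hspa1a had its match at the same positions. The 250 bases before the start sites of this gene pair were alike at 247 positions and differed by T44C, C47T and G249T, with the Hspa1b base first and positions counted from 1 at the 5′ end of the window. In Hspe1 the match ran from -89 to -72 and held overlapping copies of both forms. Hspd1 lies head to head with Hspe1, and the same stretch was at -144 to -127 of 1 of its start sites. At least 1 of the forms was present in 12.84% of the 32851 upstream windows of this length. At least 3 alternating units with 2 bases between them, which the longer run in Hspe1 includes, were present in 0.466%. The ER stress element of Hspa5 was present in 0.113% of windows. No match to either heat-shock form was in the windows of Dnajb1. In the GENCODE annotation, the printed stretch of Hspe1 lies in an exon of Hspd1. Those of Hsph1 and Hspa5 lie in exons of the genes themselves, so they may be transcribed. A match describes these letters and is not evidence of binding.

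Library totals ran from 11781637 to 15850037 counts, and every member had counts in all 9 libraries. Values are CPM, read counts relative to library size, scaled by TMM over the 9 libraries, and a count of 0 allows up to 0.255 CPM in the shallowest library, for counting error only. MPB49 control replicate 1 stood apart: against the median library its genes of short exon length (up to 3137 bases) were higher by a median of 0.375 on the log2 scale, and its long genes (from 5721 bases) had a median of -0.308. In the other libraries these medians lay between -0.116 and 0.129. Erythroid markers were high in all libraries, with 12 markers summing to 10960 to 15160 CPM and none at 0. The 14 granulocyte-monocyte markers summed to 1930 CPM in HS3A8-high replicate 3 and 4940 CPM in HS3A8-low replicate 3, against 9.628 to 249.3 CPM in the other 7 libraries. All 14 had counts in those 2 libraries, and 0 to 6 of them were at 0 in the others.

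Together the members made up 0.9199% to 1.271% of the counts of a library. Per kilobase of exon, the highest mean level over the 9 libraries was that of Hsp90ab1, the constitutive cytosolic Hsp90, with 862.7 CPM per kb (range 697.7 to 1014). Hspa8 followed with 769.6 CPM per kb (565.2 to 950.6), and these ranges overlapped. Hspd1, the mitochondrial Hsp60, had 476.3 CPM per kb (386.3 to 561.3) and Hsp90aa1, the inducible cytosolic Hsp90, 428.8 CPM per kb (309.1 to 546.8). The lowest were Hspa1b with 46.83, Hsph1 with 38.09 and Hspa1a with 9.313 CPM per kb. So Hsp90ab1, Hspa8, Hspd1 and the inducible Hsp90aa1 had high counts in these cells, and the counts of the inducible Hsp70 pair were at the low end of the members. Of the 100-base words in the transcripts of Hspa1a and Hspa1b, 56.5% and 49.9% also occur in other genes. Reads that match more than 1 gene may be missing from the counts, so the level of the pair is uncertain. In bulk RNA a lower value can come from fewer cells of a type or from less RNA per cell, and these cannot be told apart.

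**Figure D1:**
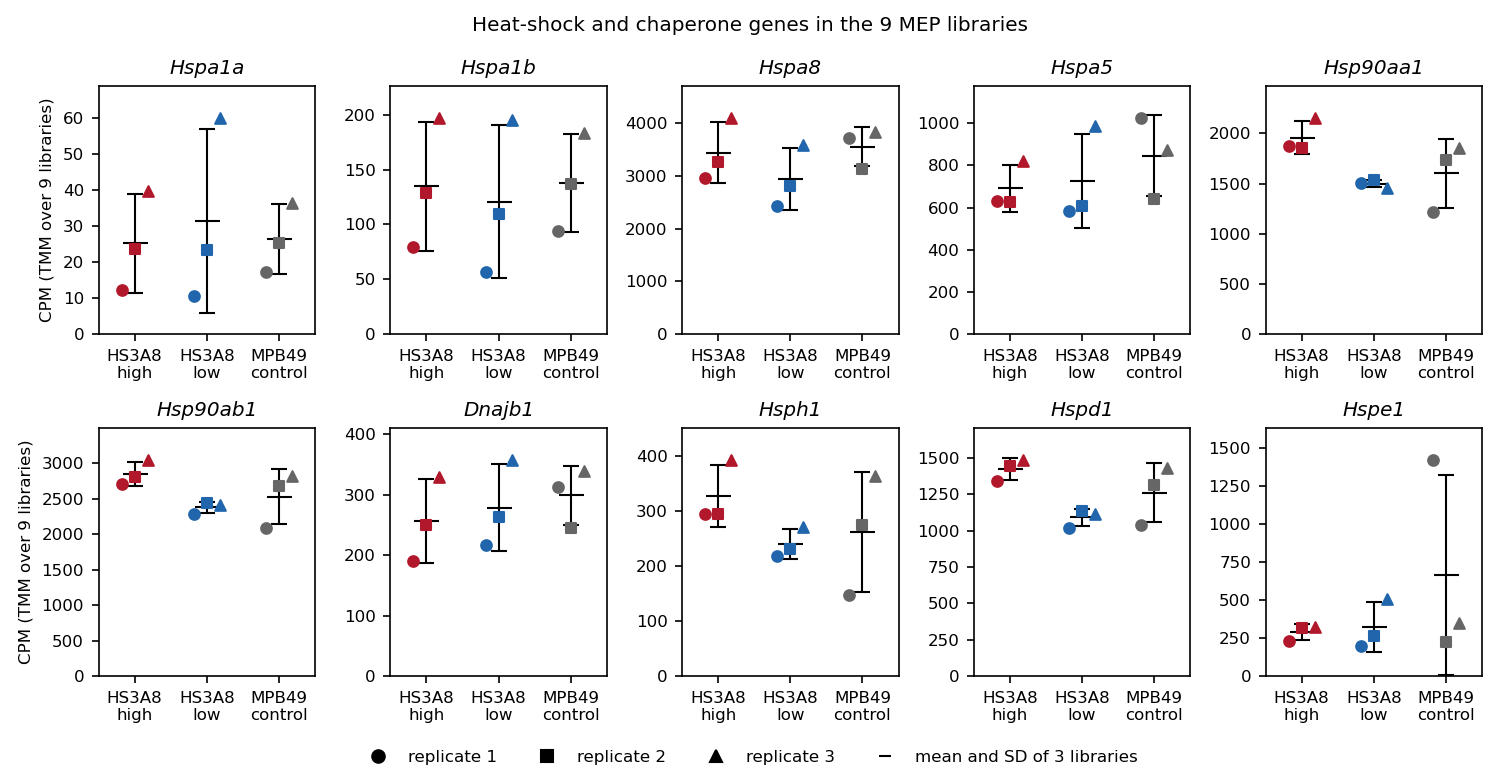
Level of each member in every library, in CPM scaled by TMM over the 9 libraries, on linear axes from 0 that differ between panels. Symbols mark the replicate number (circle 1, square 2, triangle 3), and the dash and bars are the mean and SD of 3 libraries. Hsp90aa1, Hsp90ab1, Hsph1 and Hspd1 have all HS3A8-high libraries above all HS3A8-low libraries, and in Hspa1a and Hspa1b the triangle is highest in every group.

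For the inducible Hsp70 genes the difference by HS3A8 binding did not pass the test. Hspa1b, on chr17:34956436-34959238 of GRCm38, the build of all gene positions given here, had 79.26, 128.7 and 196.9 CPM in HS3A8-high replicates 1, 2 and 3, 56.97, 109.9 and 195.6 CPM in HS3A8-low, and 93.68, 137 and 183.3 CPM in the control. The ranges of the 3 groups overlapped, with similar highest values and the lowest value in HS3A8-low. HS3A8-high over HS3A8-low gave a log2 fold change of 0.13 ± 0.48 (SE, 3 libraries a group, edgeR adjusted p = 0.909). Its neighbour Hspa1a, on chr17:34969190-34972156, had 12.17, 23.7 and 39.68 CPM in HS3A8-high, 10.59, 23.47 and 59.99 CPM in HS3A8-low, and 17.21, 25.44 and 36.46 CPM in the control. The range of HS3A8-low held those of the other groups, and the log2 fold change was -0.34 ± 0.66 (adjusted p = 0.822), turning to 0.54 without HS3A8-low replicate 3. An antisense gene, Gm20481, overlaps 19% of the exon of Hspa1a, and without the strand setting their reads cannot be told apart. Of the 100-base words in the exons of Hspa1b, 49.9% also occur in Hspa1a, so the split of reads between the pair is uncertain. For their summed counts the log2 value was 0.05 (adjusted p = 0.97).

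The spread of the Hsp70 pair lay between replicate numbers. Summed, Hspa1a and Hspa1b had 91.44, 152.4 and 236.5 CPM in HS3A8-high, 67.56, 133.4 and 255.6 CPM in HS3A8-low and 110.9, 162.4 and 219.8 CPM in the control, in the order of replicates 1, 2 and 3. The library numbered 3 was highest and the library numbered 1 lowest in each of the 3 groups. The library numbered 3 was the highest of every group for 5 members (Hspa1a, Hspa1b, Hspa8, Dnajb1 and Hsph1), as it was for 3.66% of 12108 genes. The library numbered 1 was the lowest of every group for 5 members (Hspa1a, Hspa1b, Hsp90ab1, Hsph1 and Hspd1), as it was for 5% of genes. The numbers carry no order of their own in the labels.

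This pattern was tested after it had been seen, with the replicate number as a term beside the fraction in the 6 sorted libraries. The term passed for 4 of 10 members, against a background of 1.65% of 11791 genes. Hspa1a had a log2 difference of 2.09 for replicate 3 over replicate 1 (edgeR adjusted p = 0.0345), Hspa1b of 1.53 (adjusted p = 0.0217), Dnajb1 of 0.74 (adjusted p = 0.0323) and Hspa8 of 0.49 (adjusted p = 0.0341). Hsp90aa1 had 0.06 (adjusted p = 0.802), Hsp90ab1 0.11 (adjusted p = 0.492) and Hspd1 0.12 (adjusted p = 0.39). With the control libraries other than replicate 1 added, 5 members passed, now with Hspa5 (adjusted p = 0.0404), against 1.73% of 12513 genes. That fit assumes that control numbers match those of the fractions, which was not shown. Departures of control libraries 2 and 3 from their group mean had r of -0.157 and -0.08 with same-numbered HS3A8-high libraries. With HS3A8-low, r was 0.0347 and -0.215. The control mean includes replicate 1, which stood apart, so these values cannot decide whether the numbers match. With all 9 libraries, edgeR called 0 members and 0% of 12108 genes, with 4 members and 393 genes under an unadjusted p of 0.05. The count rested on single libraries. Leaving out a HS3A8-high library gave 0 members (replicate 1 out), 1 (replicate 2 out) and 7 (replicate 3 out). Leaving out a HS3A8-low library gave 1 (replicate 1 out), 5 (replicate 2 out) and 8 (replicate 3 out). The number of all genes passing moved as well. It was lowest with HS3A8-high replicate 1 out (25 of 12253) and highest with HS3A8-high replicate 3 out (3747 of 12149). An unadjusted p under 0.05 was reached by 42.5% of genes with HS3A8-high replicate 3 out, and by 32.4% with HS3A8-low replicate 3 out. The same term passed for 9 of 9 granulocyte-monocyte markers tested in the sorted libraries. Their sum was 19.2, 9.628 and 1930 CPM in HS3A8-high replicates 1, 2 and 3, and 115.4, 249.3 and 4940 CPM in HS3A8-low. In the control their sum was 101, 189.3 and 144.1 CPM in replicates 1, 2 and 3. The part of granulocyte-monocyte cells in the result was not tested.

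**Figure D2:**
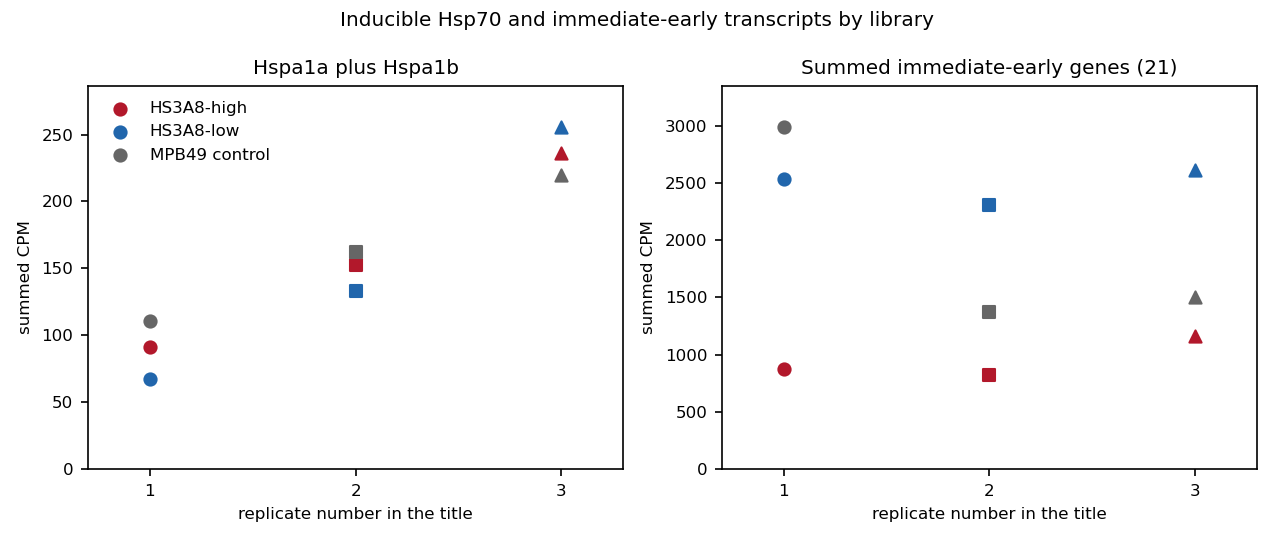
Summed CPM of Hspa1a and Hspa1b (left) and of 21 immediate-early genes (right) in each library, against the replicate number, with colours for the 3 groups and axes from 0. The Hsp70 pair is lowest in replicate 1 and highest in replicate 3 of every group, from 67.56 to 255.6 CPM. The immediate-early sum is 818.6 to 1165 CPM in HS3A8-high and 2304 to 2610 CPM in HS3A8-low.

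Dnajb1, an Hsp40 co-chaperone that hands substrates to Hsp70 and is itself induced through HSF1, lies on chr8:83608193-83612653 and was also highest in replicate 3 of each group. It had 190, 249.4 and 329.8 CPM in HS3A8-high, 216.2, 262.5 and 356.9 CPM in HS3A8-low and 313.5, 244.4 and 339 CPM in the control. The fractions overlapped (log2 fold change -0.15 ± 0.24, adjusted p = 0.786), although HS3A8-high was the lower in each replicate pair. Hspa8, the constitutive Hsp70, on chr9:40800984-40810087, had 2961, 3264 and 4088 CPM in HS3A8-high, 2431, 2798 and 3586 CPM in HS3A8-low and 3720, 3122 and 3820 CPM in the control. Its log2 fold change was 0.20 ± 0.16 (adjusted p = 0.565). It was higher in HS3A8-high within each replicate pair, by 0.28, 0.22 and 0.19 on the log2 scale, and with the replicate number as a block it passed (adjusted p = 0.0393). The exons of Hspa8 share 28.5% of their 100-base words with other genes, mostly a processed pseudogene.

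Of the cytosolic Hsp90 genes, which fold kinases and other signalling proteins, Hsp90aa1 was higher in HS3A8-high MEPs and Hsp90ab1 passed with the block only. Hsp90aa1, on chr12:110690605-110702728, had 1873, 1850 and 2150 CPM in HS3A8-high, 1505, 1531 and 1458 CPM in HS3A8-low, and 1215, 1730 and 1857 CPM in the control. All HS3A8-high libraries were above all HS3A8-low libraries, and the control reached across both. The fold was 1.28 (log2 0.36 ± 0.07, adjusted p = 0.0424). Hsp90ab1, on chr17:45567775-45573271, had 2707, 2810 and 3042 CPM in HS3A8-high, 2287, 2434 and 2417 CPM in HS3A8-low, and 2092, 2678 and 2818 CPM in the control. The fractions did not overlap, with a fold of 1.18 (log2 0.23 ± 0.06), and the call depended on the block: adjusted p = 0.0735 without it and 0.0324 with it. For Hsp90aa1, 38% of the 100-base words occur in other genes, mostly a transcribed pseudogene, while Hsp90ab1 shares none.

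Hsph1, an Hsp110 that exchanges the nucleotide of Hsp70, on chr5:149614287-149636376, had 294.7, 294.9 and 392.5 CPM in HS3A8-high, 219.2, 231.5 and 271.2 CPM in HS3A8-low and 147.7, 275.3 and 363.7 CPM in the control. The fractions did not overlap, and the log2 fold change of 0.42 ± 0.14 was the largest of the members. It missed the threshold without the block (adjusted p = 0.156) and passed with it (adjusted p = 0.02). Within the replicate pairs it was higher in HS3A8-high by 0.43, 0.35 and 0.53 on the log2 scale. Hspa1b, with a match to GAANNTTC where Hsph1 has one to TTCNNGAA, had 0.48, 0.23 and 0.01.

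Of the mitochondrial chaperonin genes, a head-to-head pair, Hspd1 passed and Hspe1 did not. Their annotated exons overlap, over 4.24% of the bases of Hspd1 and 7.6% of those of Hspe1. Other genes, mostly a processed pseudogene, share 23.9% of the 100-base words of Hspd1. For Hspe1 the shared part is 11%. Hspd1, on chr1:55077835-55088243, had 1341, 1445 and 1483 CPM in HS3A8-high, 1021, 1135 and 1116 CPM in HS3A8-low and 1038, 1313 and 1433 CPM in the control. No library of one fraction reached the other, and the fold was 1.28 (log2 0.36 ± 0.07, adjusted p = 0.0363). Hspe1, on chr1:55088132-55091307, encodes Hsp10, the lid of the Hsp60 barrel. It had 229.5, 315.9 and 319.5 CPM in HS3A8-high, 195.8, 260.5 and 507.1 CPM in HS3A8-low and 1418, 224.3 and 351.6 CPM in the control. HS3A8-low replicate 3 and control replicate 1 were high, and the log2 fold change was -0.18 ± 0.34 (adjusted p = 0.815), turning to 0.31 without HS3A8-low replicate 3. Hspe1 has the shortest exons of the members (1474 bases) and Hsph1 the longest (7266 bases). In control replicate 1, the library with raised short and lowered long genes, Hspe1 was the highest and Hsph1 the lowest of all 9 libraries. The part of exon length in these values was not tested.

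Hspa5 encodes BiP, the Hsp70 of the ER and a target of the unfolded protein response, and lies on chr2:34771970-34777547. It had 629.4, 624.4 and 819.8 CPM in HS3A8-high, 585.1, 608.7 and 984.6 CPM in HS3A8-low and 1023, 640.4 and 871.8 CPM in the control. The highest HS3A8-low library was above all HS3A8-high libraries and the others were below them, so the fractions overlapped (log2 fold change -0.10 ± 0.22, adjusted p = 0.848). Without HS3A8-low replicate 3 the value was 0.19.

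Between the fractions, 2 of 10 members passed, Hsp90aa1 and Hspd1, both higher in HS3A8-high. Of all 11791 genes tested, 3.82% passed in either direction, 0.611% as higher and 3.21% as lower in HS3A8-high. With the replicate block, 5 of 10 passed as higher (Hsp90ab1, Hsph1 and Hspa8 in addition), against 3.32% higher, 8.27% lower and 11.6% of all genes in either direction. The fractions did not overlap for 4 of 10 members, against 28.7% of all genes. The median log2 fold change of the members was 0.17, and that of all genes -0.03. These are small differences. Both calls without the block were lost when any of the 6 libraries was left out, with adjusted p from 0.075 to 0.147 for Hsp90aa1 and from 0.0557 to 0.147 for Hspd1, while the log2 fold changes stayed at 0.30 to 0.40 and 0.33 to 0.41. They were also lost with all 9 libraries in the fit, with adjusted p = 0.299 for Hsp90aa1 and 0.212 for Hspd1. The summed erythroid markers were 14340 to 15160 CPM in HS3A8-high and 10960 to 12310 CPM in HS3A8-low, with 7 of 12 positive and 1 called higher. The summed megakaryocyte markers were 36.33 to 55.04 CPM against 226 to 480.3 CPM, with 5 of 9 tested called lower in HS3A8-high. The part of this difference in cell type in the chaperone values was not tested.

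**Figure D3:**
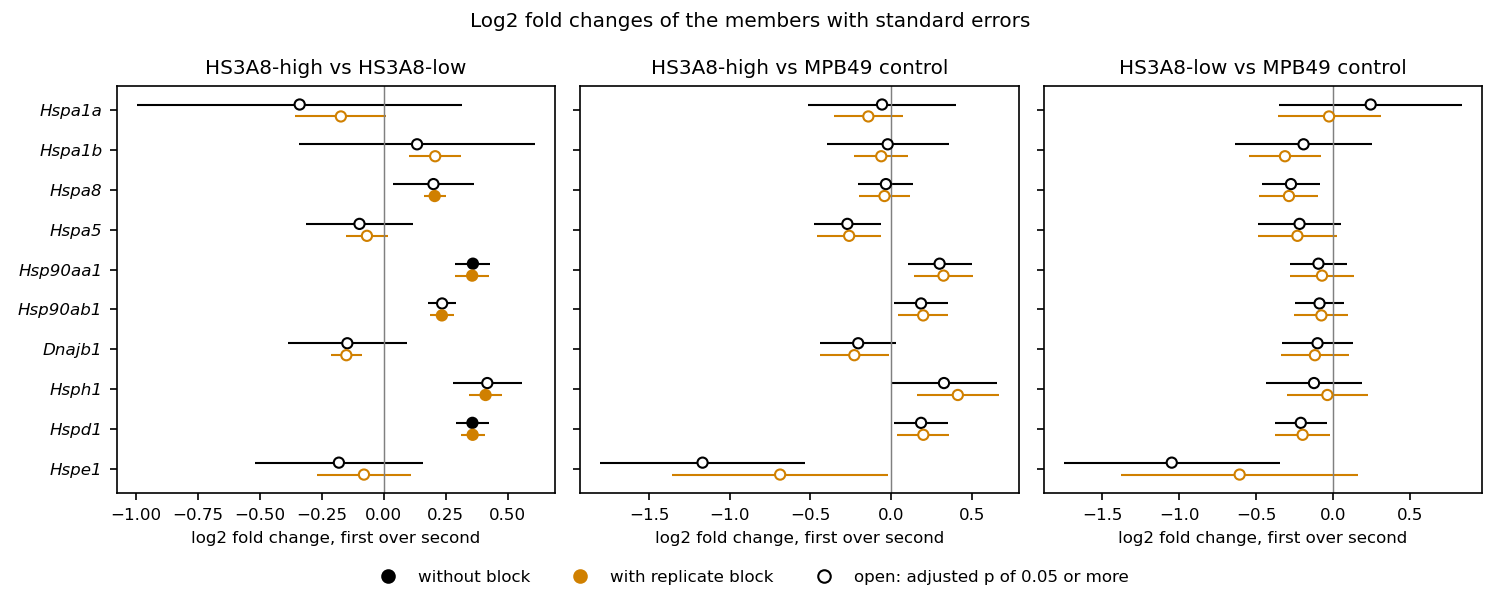
Log2 fold change of each member (x axis, first group over second) with its standard error, without (black) and with (orange) the replicate number as a block, in the 3 comparisons. Filled points have an adjusted p under 0.05: between HS3A8-high and HS3A8-low, Hsp90aa1 and Hspd1 in both fits and Hspa8, Hsp90ab1 and Hsph1 with the block, and none against the control.

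No member differed from the control by a test that passed. For HS3A8-high against the control, edgeR called 0 of 10 members, 0 had an unadjusted p under 0.05, and DESeq2 called 0. Of 11486 genes 0.0174% passed, 562 had an unadjusted p under 0.05 and DESeq2 called 143. The groups overlapped for all 10 members, while 14.2% of genes did not overlap. The smallest adjusted p of a member was 0.733, and Hsp90aa1 stood at 0.30 ± 0.20 on the log2 scale. For HS3A8-low against the control, edgeR and DESeq2 called 0 of 10 members and 0 had an unadjusted p under 0.05, with 0% of 11878 genes passing, 673 with an unadjusted p under 0.05 and 93 called by DESeq2. Again all members overlapped, against 12.8% of genes that did not. The farthest from 0 was Hspe1, with -1.17 ± 0.63 for HS3A8-high and -1.05 ± 0.70 for HS3A8-low, and without control replicate 1 these values were 0.01 and 0.15. Both comparisons share the control libraries.

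Among related genes, 3 lists of cytosolic and mitochondrial folding machinery had positive medians between HS3A8-high and HS3A8-low, with 1 call each. Stip1, the adaptor that joins Hsp70 to Hsp90, was the 1 of 12 Hsp90 co-chaperones that passed (log2 fold change 0.33 ± 0.06, adjusted p = 0.0391), with 8 of 12 positive and a list median of 0.13. Fkbp4 had 0.27 (adjusted p = 0.0989) and Ppp5c 0.26 (adjusted p = 0.0994). Of the cytosolic chaperonin TRiC and prefoldin, 1 of 14 passed, the subunit Cct8 (0.31 ± 0.06, adjusted p = 0.0363), with a list median of 0.16. Cct3 had 0.26 (adjusted p = 0.0646) and Cct7 0.24 (adjusted p = 0.109). Of the mitochondrial chaperones and proteases, 1 of 11 passed, Hspa9, the mitochondrial Hsp70 that works with Hsp60 (0.34 ± 0.06, adjusted p = 0.0312). Afg3l2 had 0.36 (adjusted p = 0.0522) and Lonp1 0.34 (adjusted p = 0.083), and the list had 9 of 11 positive and a median of 0.23. With the block, 2, 4 and 4 genes of these lists passed, all higher in HS3A8-high. Of all genes, 3.32% then passed as higher and 11.6% in either direction. Without the block, leaving out any of the 6 libraries or fitting all 9 together left 0 calls in each of these 3 lists.

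The further cytosolic heat-shock genes had 0 of 13 called by edgeR, 2 at an unadjusted p under 0.05 and 1 called by DESeq2, with a median of 0.08. Hspa4, another Hsp110, had 0.41 ± 0.09 (adjusted p = 0.052), Dnaja2 0.22 (adjusted p = 0.179) and Bag3, a nucleotide exchange factor induced by stress, 0.33 (adjusted p = 0.305). Hsf1 itself had 115.8 to 128.6 CPM over all 9 libraries and a log2 fold change of -0.02 ± 0.08 (adjusted p = 0.906). The ER list had 1 of 22 called and a median of -0.01, and the gene called was Dnajb9, an ER Hsp40 that works with BiP, which was lower in HS3A8-high (-1.11 ± 0.18, adjusted p = 0.0283). The list had 0 calls when any library other than HS3A8-high replicate 3 was left out, and 0 with all 9 in the fit. Canx had 0.30 (adjusted p = 0.0508) and Ddit3, a factor of the stress response, -0.39 (adjusted p = 0.27). Of the 22 genes, 9 had positive and 13 negative values.

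Of the immediate-early genes, most of those tested were called lower in HS3A8-high. The 21 genes summed to 871.1, 818.6 and 1165 CPM in HS3A8-high, 2534, 2304 and 2610 CPM in HS3A8-low and 2987, 1370 and 1500 CPM in the control. The fractions did not overlap, and control replicate 1 was high. Of 18 tested, 11 were called lower in HS3A8-high and all 18 had a negative log2 fold change, with a median of -1.51. The number called was 14 with the block and 7 with all 9 libraries in 1 fit. It was 0 without HS3A8-low replicate 2, where 0 of 12194 genes passed. It was 5 without HS3A8-high replicate 1, where 42 of 12253 genes passed, and 5 without HS3A8-low replicate 1, where 56 of 12058 passed. Leaving out any of the remaining 3 libraries gave 7 to 13. Jun had -1.42 ± 0.12, Ier3 -1.79 ± 0.15 and the phosphatase gene Dusp2 -2.29 ± 0.21, each with an adjusted p of 0.00712. In the same fit, Hspa1a had -0.34, Hspa1b 0.13 and Dnajb1 -0.15, none of which passed. For the replicate number in the 6 sorted libraries, a term added after the values were seen, 1 of 18 immediate-early genes passed. Of the members 4 of 10 passed, against 1.65% of 11791 genes, and 0 to 8 when single libraries were left out. With all 9 libraries, 0 of either list passed. Against the control, edgeR called 0 of 17 immediate-early genes for HS3A8-high (11 at an unadjusted p under 0.05, 5 by DESeq2) and 0 of 19 for HS3A8-low (1 at an unadjusted p under 0.05, 0 by DESeq2). The difference between these gene groups was not itself tested, and both lists were chosen with earlier results of these data known. Summed markers of other cells also had lower levels in HS3A8-high. The 9 T and NK cell markers summed to 4.137 to 38.75 CPM in HS3A8-high and 153.1 to 175.8 CPM in HS3A8-low, with all 9 values negative and 2 called. The 8 stem and multipotent progenitor markers summed to 17.98 to 37.03 CPM against 159 to 211.3 CPM, with 3 of 7 tested called. The 7 B cell markers summed to 1.354 to 5.224 CPM against 10.06 to 13.61 CPM, with 0 of 2 tested called by edgeR, 1 at an unadjusted p under 0.05 and 1 by DESeq2. In HS3A8-high replicate 2, 6 of the 9 T and NK and 5 of the 7 B cell markers were at 0. The part of these cells in the immediate-early values was not tested.

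**Figure D4:**
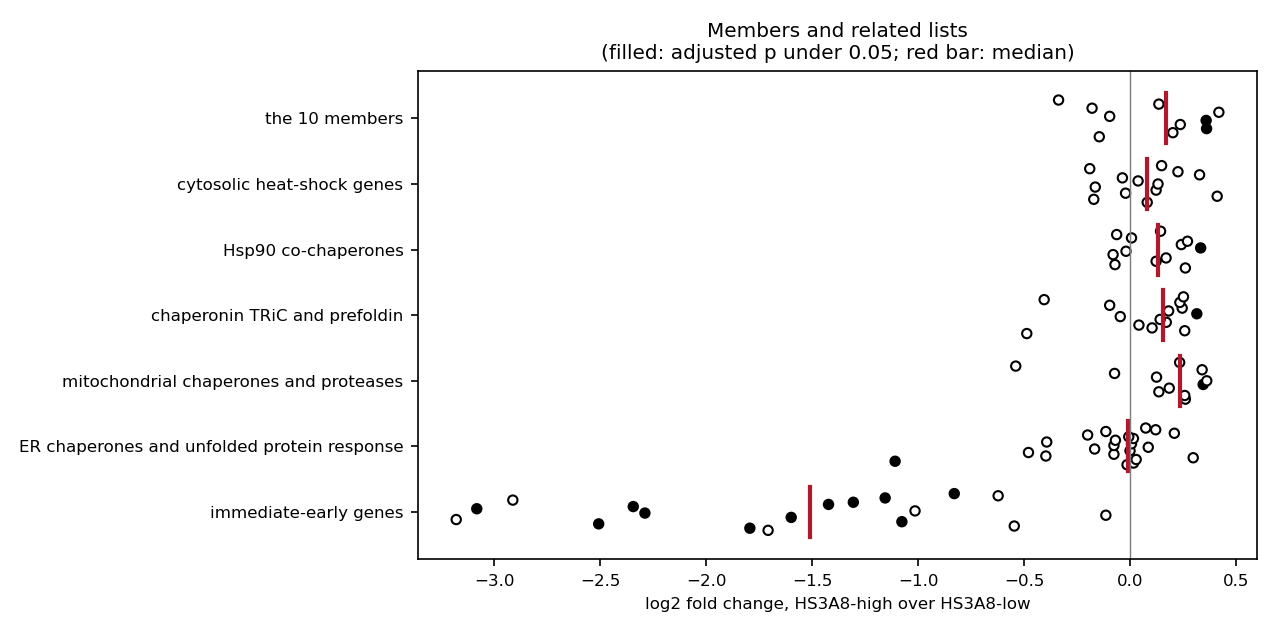
Log2 fold change of HS3A8-high over HS3A8-low (x axis) for the tested genes of the members and 6 related lists, 1 point a gene, filled where the adjusted p is under 0.05, with a red bar at the list median. The members have a median of 0.17 and the immediate-early genes of -1.51, with all 18 of the latter below 0.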

How the data were processed

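RNA-seq was made from sorted mouse MEPs in 9 libraries, 3 a group. The authors deposited raw whole-number counts per gene without normalization. The submitters' processing notes name STAR 2.5, HTSeq 0.6.1 and mm10, while the annotation release and the strand setting are not given in the sources used here. Identifiers were matched to GENCODE mouse release 21 (GRCm38; 34490 matched). Library totals ran from 11781637 to 15850037 counts.

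Each comparison was fitted with its 6 libraries by the quasi-likelihood test of edgeR 4.0.16 in R 4.3.3 (TMM, filterByExpr, two-sided, Benjamini-Hochberg over all genes, threshold 0.05). Levels are CPM after TMM over 9 libraries. The edgeR test between the fractions, with and without the replicate block, was checked on simulated counts with the same dispersion for all genes. The control comparisons, the term for replicate number and DESeq2 were not checked in this way. P-values measure the spread between these samples. Alternatives were DESeq2 1.42.0 (test, size factors), no filter, all libraries in 1 fit, summed Hspa1a and Hspa1b, each library left out and the replicate block. The term for replicate number and the fit without replicate 3 of both fractions were added after the values were seen.

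Pairing was checked over 12108 genes. Same-numbered HS3A8-high and HS3A8-low libraries departed together from their group means (r 0.374 to 0.576; different numbers -0.543 to 0.13), so the block is given there. Same-numbered control pairs had r from -0.398 to 0.0347, with control replicate 1 included in the control mean.

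All members were named. From each related list, the 3 genes with the smallest p between the fractions were named, and Hsf1. Members and lists were chosen with earlier results of these data known.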

Additional observations from a re-analysis of the deposited data

How the results depend on the processing

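Under the replicate block, 5 members and 1367 genes were called between the fractions, against 2 and 451 without it. Between HS3A8-high and the control 0 genes were called, against 2, and r did not show that the numbers pair these libraries. The block turned Hspa1a in HS3A8-low against the control to -0.025, and changed no call of a member beyond those named in the report. Between the fractions, DESeq2 called 1224 genes, no count filter left 1 member and all 9 libraries in 1 fit left 0. Without replicate 3 of both fractions 748 genes and 0 members were called, and Hspa1a turned to 0.078, Hspa5 to 0.064 and Hspe1 to 0.255. For HS3A8-high against the control, 143 genes were called by DESeq2, 9 without a filter and 32 with all libraries in the fit, and for HS3A8-low 93 by DESeq2. For the replicate number, all 9 libraries gave 0 genes and 0 members. The causes were not tested.

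Leaving out each library in turn, 0 to 439 genes and 0 members were called between the fractions. The log2 fold changes that changed sign between the fractions ranged as Hspa1a -0.819 to 0.541, Hspa1b -0.231 to 0.669, Hspa5 -0.228 to 0.186, Dnajb1 -0.359 to 0.073, Hspe1 -0.414 to 0.313. Leaving out each library in turn, 0 to 5 genes were called between HS3A8-high and the control. The log2 fold changes that changed sign between HS3A8-high and the control ranged as Hspa1a -0.545 to 0.282, Hspa1b -0.395 to 0.257, Hspa8 -0.173 to 0.075, Hspe1 -1.572 to 0.008. The log2 fold changes that changed sign between HS3A8-low and the control ranged as Hspa1a -0.621 to 0.659, Hspa1b -0.713 to 0.146, Hsp90aa1 -0.26 to 0.026, Dnajb1 -0.306 to 0.052, Hsph1 -0.41 to 0.187, Hspe1 -1.519 to 0.155. Leaving out each library in turn, 25 to 3747 genes and 0 to 8 members were called for the replicate number.

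The lowest count of a member in a library was 181 (Hspa1a), and its CV within groups was 36.62% to 81.74%, so counting error is a small part of the spread.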

Other observations

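The genes whose levels were most like those of single members were described by Pearson's r of log2 CPM over the 9 libraries, which share groups and depth, among 9322 genes whose mean reached 5 CPM. For the sum of Hspa1a and Hspa1b, the 5 highest were Gm8355 (r 0.967), Daglb (0.954), Khdc4 (0.946), Apmap (0.942) and Pofut2 (0.925). For Hspa5, they were Pdia6 (0.976), Pdia3 (0.967), Tbpl1 (0.954), Tor1a (0.95) and Derl2 (0.947). Pdia6 and Pdia3 encode disulfide isomerases of the ER. Pdia6 ranged from 258.2 to 409 CPM over the libraries, and Daglb from 60.6 to 94.5 CPM. These values are a description of these libraries, and no test was run on them.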
